A study of Mus musculus with 8 samples.

Results

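Gene expression was profiled in the livers of 8 male wild-type mice (C57BL/6 in the labels, C57BL/6J in the study's methods), 4 given standard chow (STD diet) and 4 given a high-fat, high-cholesterol atherogenic (ATH) diet that also contained cholic acid, each for 4 weeks. The mice were 14 to 17 weeks old at the start, carried no transgene, and were each hybridised to 1 Agilent whole-genome array. The enzymes of glycolysis, gluconeogenesis and glycogen metabolism were examined: 36 genes were listed by name, of which 35 had a probe on the array, among 16558 genes with a detected probe. These 35 genes had 53 probes, all of them detected. Each gene was read from the probe with the highest mean signal over the 8 arrays, as its log2 intensity less the 75th percentile of all probes on that array, hereafter the scaled signal. All arrays of a diet lay on 1 slide, a different one for each diet, and the effects of slide and diet cannot be told apart.

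Glucose enters the hepatocyte through the transporter GLUT2, encoded by Slc2a2, and is phosphorylated there, a step under the control of the liver regulatory protein encoded by Gckr. Glycolysis breaks the sugar down to pyruvate, gluconeogenesis rebuilds glucose from pyruvate around the irreversible glycolytic steps, and glycogen stores it. Many of these enzymes exist as isozymes, encoded by separate genes. The liver uses a set of its own, such as liver glycogen synthase, liver glycogen phosphorylase and the L-type pyruvate kinase, whereas macrophages, muscle, brain and proliferating cells use others, such as hexokinases 1 to 3, aldolases A and C and pyruvate kinase M. The genes were therefore divided by general knowledge into 12 liver isozymes or liver-restricted genes, 13 isozymes of other tissues and 10 genes shared by most tissues.

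Of the 35 genes, 1 rose and 1 fell on the ATH diet, and both encode isozymes of other tissues. Pyruvate kinase M (Pkm2 in the array's naming, now Pkm) was 3.62-fold higher, and aldolase C (Aldoc) was 3.96-fold lower. None of the 12 liver isozymes and none of the 10 shared genes passed the test (limma, Benjamini-Hochberg over all 31056 detected probes, at 5%). An unadjusted p under 0.05 was seen for 3 of each, for 8 of the 13 isozymes of other tissues and for 30.6% of all genes. Without scaling, the liver isozymes Pklr, Pygl and Slc37a4 and the shared genes Gpi1 and Ldha were called higher, where 25.9% of all genes were. Pklr was also called with spike-in scaling, where 10.5% of all genes were called higher. Over all genes, 4.05% were called higher and 5.3% lower by the same test, so the number of calls among these enzymes was no higher than the background. The isozymes of other tissues were nonetheless spread widely, with log2 fold changes from -1.99 to 1.86, whereas those of the liver isozymes ran from -0.9 to 0.2 and those of the shared genes from -0.52 to 0.42.

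**Figure D1:**
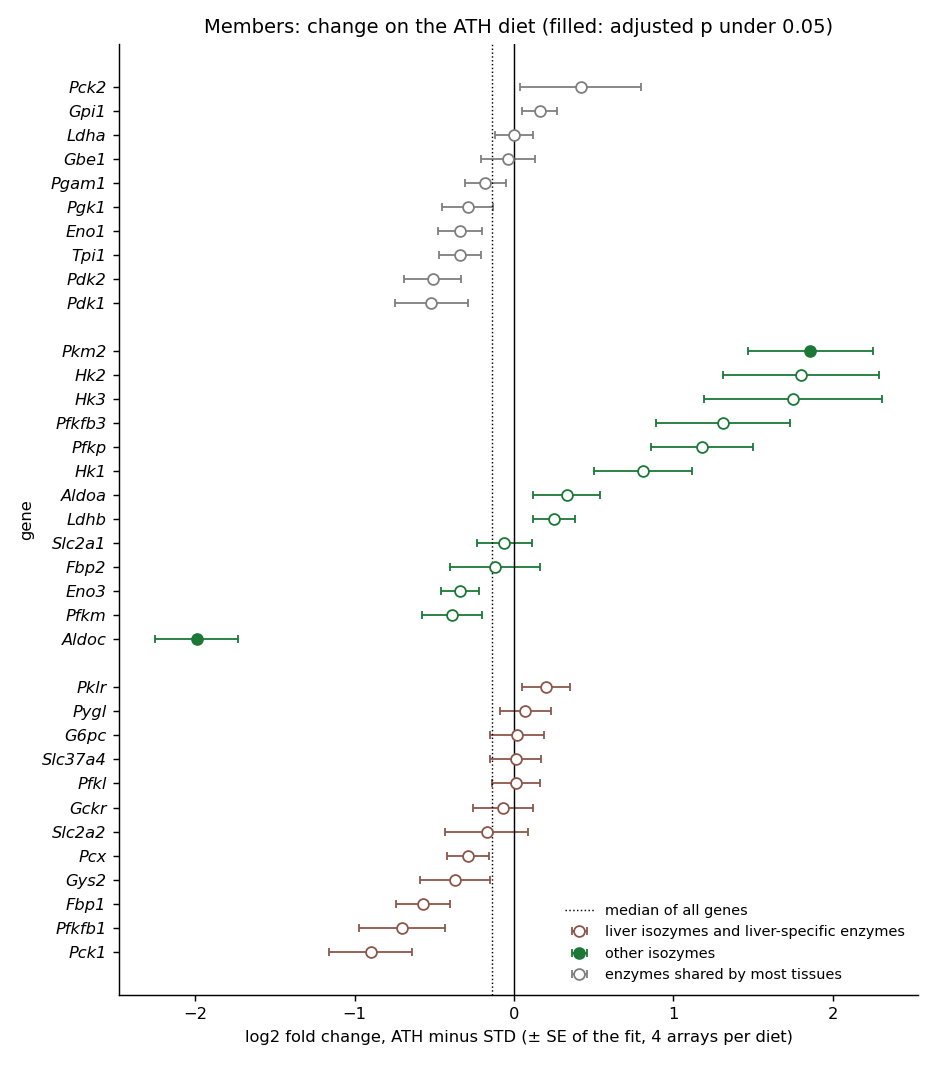
Log2 fold change (ATH minus STD, x axis) with the standard error of the fit for each of the 35 genes (y axis), grouped into liver isozymes, isozymes of other tissues and shared enzymes; filled points passed an adjusted p under 0.05 and the dotted line marks the median of all genes. Only Pkm2 at 1.86 and Aldoc at -1.99 are filled, and the 5 genes nearest to Pkm2, from Hk2 to Hk1, are all isozymes of other tissues.

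The scaling matters for the sign of small differences. The 75th percentile was 0.447 higher on the log2 scale on the ATH arrays than on the STD arrays, and the median log2 fold change over all genes was -0.14 after scaling, 0.31 without scaling and 0.17 when the arrays were scaled by spike-in controls. The median log2 fold change of the 35 genes was -0.06, with 16 genes above 0 and 19 below, where 34.9% of all genes lay above 0. By class the median was 0.33 for the isozymes of other tissues, -0.12 for the liver isozymes and -0.23 for the shared genes. Relative to the median of all genes, 10 of the 13 isozymes of other tissues lay higher, as did 6 of the 12 liver isozymes and 4 of the 10 shared genes. These 3 counts were the same without scaling, and after quantile normalization they were 10, 8 and 7.

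The number of calls depended on the processing. Without scaling, 12 of the 35 genes were called higher and 1 lower, against 25.9% and 1.35% of all genes, and with spike-in scaling 5 and 1, against 10.5% and 1.6%. With a normexp background correction, Hk2, Hk3, Pfkp, Pfkfb3 and Pkm2 were called higher and Aldoc, Pck1, Fbp1 and Eno3 lower, where 5.62% and 15.8% of all genes were called. With the arrays of the same number taken as pairs the 2 calls were again Pkm2 and Aldoc, against 2.07% and 2.75%.

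Hexokinases catalyse the first step after glucose uptake. Hexokinase 2 (Hk2), the insulin-regulated form of muscle and fat, had scaled signals of -1.32, -1.37, -1.17 and -1.51 on STD arrays 1 to 4 and of -0.03, -0.95, 1.27 and 1.54 on ATH arrays 1 to 4. The diets did not overlap, but the ATH livers ranged over more than the difference between the means. On average the ATH livers were higher by 1.80 on the log2 scale (SE 0.49, n = 4 per diet), which missed the threshold (adjusted p = 0.0562 by limma).

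Hexokinase 3 (Hk3), a form of white blood cells, read -0.59, -0.96, -0.98 and -1.14 on the STD arrays and 0.53, -0.91, 1.67 and 2.06 on the ATH arrays. The liver of ATH array 2 lay among the STD livers and the others above them. Its log2 fold change was 1.75 (SE 0.56, adjusted p = 0.0858 by limma).

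Hexokinase 1 (Hk1), the housekeeping form, read -0.21, -0.44, -0.24 and -0.24 on STD and 0.28, -0.36, 0.98 and 1.24 on ATH. It repeated the order of the ATH livers seen for Hk2 and Hk3, with array 4 highest, array 2 lowest, and array 2 inside the STD range. The means differed by 0.81 on the log2 scale (SE 0.31, adjusted p = 0.131 by limma).

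The probes of Hk1 disagreed. The probe that gave these values lies nearest the 3′ end of those on the array, at chr10:61787906-61787965 on the minus strand of mm7, the build of the array design. The 5 dimmer probes of Hk1, spread upstream of it, had log2 fold changes from -0.38 to -0.04, none of which passed the test, so the difference in Hk1 rests on 1 of 6 probes.

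The liver-restricted genes of uptake and phosphorylation differed little between the diets. The regulatory protein gene Gckr had a log2 fold change of -0.07 (SE 0.19), and the 4 STD values, from 6.99 to 7.29, lay inside the ATH range of 6.62 to 7.39. The liver glucose transporter Slc2a2 read 4.13, 4.42, 3.76 and 4.14 on STD and 4.33, 4.47, 3.45 and 3.52 on ATH (log2 fold change -0.17, SE 0.26). The widely expressed transporter GLUT1, encoded by Slc2a1, read 1.40, 1.55, 1.68 and 1.81 on STD and 1.21, 1.56, 1.51 and 1.93 on ATH (log2 fold change -0.06, SE 0.17). The diets overlapped for both, and neither passed the test.

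Phosphofructokinase commits fructose 6-phosphate to glycolysis and has a liver, a muscle and a platelet form. The platelet form, Pfkp, read -2.34, -1.72, -2.40 and -2.59 on STD and -1.36, -1.85, -0.59 and -0.52 on ATH. ATH arrays 3 and 4 were again the highest, and ATH array 2 fell below STD array 2. Its log2 fold change was 1.18 (SE 0.32, adjusted p = 0.0551 by limma), and the 2 dimmer probes of Pfkp gave 0.52 and -0.34.

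The liver form, Pfkl, read 1.26, 1.09, 1.26 and 1.37 on STD and 1.15, 0.97, 1.43 and 1.48 on ATH, a log2 fold change of 0.01 (SE 0.15). The muscle form, Pfkm, read 1.89, 1.98, 1.89 and 2.09 on STD and 1.80, 1.92, 1.07 and 1.49 on ATH, a log2 fold change of -0.39 (SE 0.19, adjusted p = 0.211 by limma). None of the 3 forms was called, and the sign for Pfkm turned without scaling (0.06).

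The bifunctional enzymes PFKFB make and break fructose 2,6-bisphosphate, the strongest allosteric activator of phosphofructokinase and an inhibitor of gluconeogenesis. The inducible form Pfkfb3 read -0.26, 0.04, -0.59 and -0.06 on STD and 0.39, 0.42, 2.42 and 1.17 on ATH, with no overlap between the diets (log2 fold change 1.31, SE 0.42, adjusted p = 0.0836 by limma). The 2 dimmer probes of Pfkfb3 gave 0.28 and 0.42 and overlapped, so the separation rests on 1 of 3 probes. The liver form Pfkfb1 read 2.39, 2.78, 3.64 and 3.33 on STD and 2.51, 2.17, 2.56 and 2.10 on ATH, a log2 fold change of -0.70 (SE 0.27, adjusted p = 0.128 by limma). STD array 1 lay inside the ATH range for Pfkfb1, and the other STD arrays above it.

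Aldolase splits fructose 1,6-bisphosphate into the triose phosphates. Aldolase C (Aldoc), the brain form, had scaled signals of 1.13, 0.97, 1.61 and 2.12 on STD arrays 1 to 4 and of -0.55, -0.21, -0.88 and -0.47 on ATH arrays 1 to 4. Every ATH liver lay more than 1 log2 unit below the lowest STD liver. The mean difference was -1.99 on the log2 scale (SE 0.26, adjusted p = 0.0083 by limma), so Aldoc also passed the 1% threshold that the study's methods used, which 0.38% of all genes passed in the lower and 0.26% in the higher direction.

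The second Aldoc probe, at chr11:78409262-78409321 on the plus strand of mm7, lies downstream of the first at chr11:78408037-78408096 and gave -1.48 on the log2 scale (limma, adjusted p = 0.0137), also without overlap. With the arrays of the same number taken as pairs, the adjusted p of the first probe was 0.0369, which passed 5% and not 1%. Aldoc remained below 5% with each array left out in turn (adjusted p from 0.00507 to 0.0313).

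Aldolase A (Aldoa), the muscle and housekeeping form, read 5.87, 5.71, 5.99 and 5.66 on STD and 6.11, 5.55, 6.44 and 6.46 on ATH (log2 fold change 0.33, SE 0.21, adjusted p = 0.324 by limma). ATH arrays 3 and 4 were the highest and array 2 the lowest of all 8 livers, so the diets overlapped and Aldoa was not called.

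**Figure D2:**
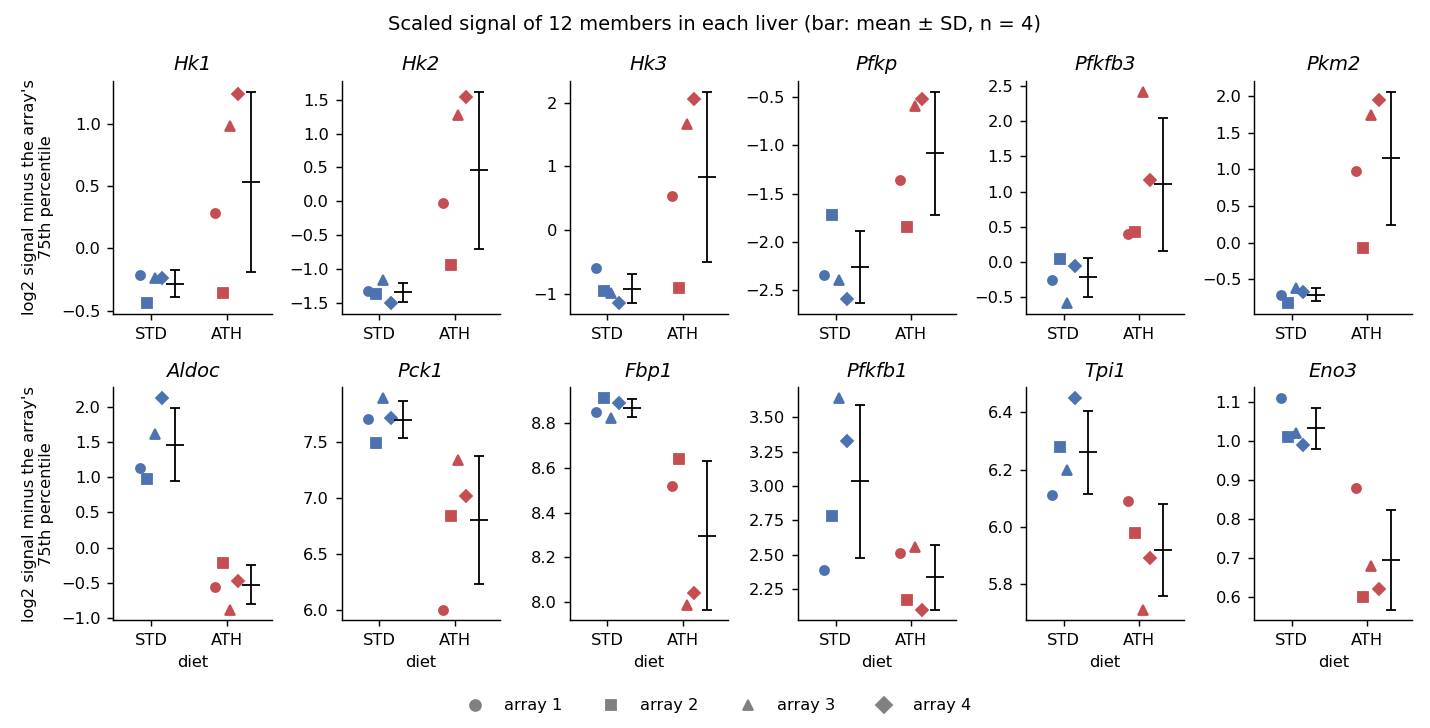
Scaled signal (log2 signal minus the array's 75th percentile, y axis) of 12 genes in each liver on the STD and ATH diets (x axis), with 1 symbol for each array number and the mean ± SD of the 4 livers beside them. In the 6 upper panels ATH arrays 3 and 4 lie highest and arrays 1 and 2 nearer to the STD livers, and in the lower row Aldoc separates from -0.21 and below to 0.97 and above.

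Lower glycolysis runs from the triose phosphates to pyruvate. Pyruvate kinase M (Pkm2), the form of most tissues other than liver and red blood cells, read -0.72, -0.83, -0.62 and -0.67 on STD and 0.98, -0.07, 1.74 and 1.94 on ATH. All ATH livers lay above all STD livers, whose own spread was small (SD 0.09 against 0.91). The mean difference was 1.86 on the log2 scale (SE 0.39, adjusted p = 0.0305 by limma), and 0.0474 with the arrays paired by number.

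A second Pkm2 probe, at chr9:59705879-59705938, gave 1.70 (adjusted p = 0.0635 by limma) and the one used, at chr9:59706027-59706086, is its neighbour, both on the plus strand of mm7. The Pkm2 call was lost when any of the STD arrays or ATH array 3 or 4 was left out (adjusted p from 0.0638 to 0.0806), and kept without ATH array 1 (0.0499) or ATH array 2 (0.00239). Its log2 fold change stayed between 1.59 and 2.26 in all of these.

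The L-type and R-type pyruvate kinase of liver and red blood cells, Pklr, read 0.29, 0.33, 0.23 and 0.41 on STD and 0.62, 0.86, 0.28 and 0.31 on ATH. Here ATH array 2, the lowest for Pkm2, was the highest. Its log2 fold change was 0.20 (SE 0.15, adjusted p = 0.411 by limma).

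The steps between differed by less than Pkm2 did. Triose phosphate isomerase (Tpi1) read 6.11, 6.28, 6.20 and 6.45 on STD and 6.09, 5.98, 5.71 and 5.89 on ATH, and muscle enolase (Eno3) read 1.11, 1.01, 1.02 and 0.99 on STD and 0.88, 0.60, 0.68 and 0.62 on ATH. Both separated without passing the test (log2 fold change -0.34 in each, adjusted p = 0.139 and 0.1), and both turned to 0.11 without scaling. The common enolase (Eno1) read 1.33, 1.05, 1.43 and 1.43 on STD and 0.94, 0.77, 1.12 and 1.03 on ATH. Together with phosphoglycerate kinase (Pgk1) and phosphoglycerate mutase (Pgam1), its log2 fold change lay between -0.34 and -0.18, and all 3 genes overlapped and turned above 0 without scaling.

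Lactate dehydrogenase A (Ldha) had the smallest log2 fold change of the 35 genes, with 7.44, 7.39, 7.37 and 7.64 on STD and 7.43, 7.58, 7.51 and 7.33 on ATH and a value of 0.00 (SE 0.12). Lactate dehydrogenase B (Ldhb), the heart form, read 0.37, 0.31, 0.08 and 0.09 on STD and 0.42, 0.47, 0.34 and 0.61 on ATH, with an overlap at 0.37 and 0.34 (log2 fold change 0.25, SE 0.13, adjusted p = 0.234 by limma).

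Glucose phosphate isomerase (Gpi1), of upper glycolysis, separated narrowly, with 5.66 to 5.77 on STD and 5.80 to 6.00 on ATH (log2 fold change 0.16, SE 0.11, adjusted p = 0.364 by limma), and its dimmer probe gave -1.32 (adjusted p = 0.0687). Glyceraldehyde 3-phosphate dehydrogenase (Gapdh) had no probe under its name. A pair of probes that carry the Gapdh transcript among their accessions, but are named for near-identical gene copies, had log2 fold changes of -0.14 and -0.02 and cannot be assigned to Gapdh with certainty.

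Probes rather than whole transcripts were read, and their sequences show which parts were compared. The 4 below are the probes of the liver pyruvate kinase, of the platelet phosphofructokinase and of Hk3, each the one used, and a dimmer Hk1 probe that had a log2 fold change of -0.32 where the brightest Hk1 probe had 0.81. The first 2 cover 519 and 2155 bases of the mm7 genome with 60 bases of probe, and so cross a splice junction. No bases are marked in capitals.
Pklr, chr3:89271395-89271913, plus strand: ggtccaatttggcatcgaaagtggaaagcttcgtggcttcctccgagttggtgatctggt
Pfkp, chr13:6475782-6477936, minus strand: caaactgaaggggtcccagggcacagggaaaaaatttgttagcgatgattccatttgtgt
Hk3, chr13:54088929-54088988, minus strand: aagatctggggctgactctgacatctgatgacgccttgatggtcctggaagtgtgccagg
Hk1, dimmer probe, chr10:61790367-61790426, minus strand: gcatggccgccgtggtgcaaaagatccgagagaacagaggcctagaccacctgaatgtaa

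Gluconeogenesis bypasses the irreversible steps with enzymes of its own. Phosphoenolpyruvate carboxykinase of the cytosol (Pck1), induced by fasting and glucagon, read 7.70, 7.49, 7.89 and 7.71 on STD and 6.00, 6.84, 7.34 and 7.02 on ATH. The diets did not overlap, and ATH array 1, not 3 or 4, was the farthest from the STD livers. The mean difference was -0.90 on the log2 scale (SE 0.26, 1.86-fold lower) and missed the threshold (adjusted p = 0.0693 by limma). It shrank to -0.45 without scaling (adjusted p = 0.281 by limma) and to -0.57 after quantile normalization (0.305).

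Fructose 1,6-bisphosphatase 1 (Fbp1), the liver form, read 8.85, 8.91, 8.82 and 8.89 on STD and 8.52, 8.64, 7.99 and 8.04 on ATH, again without overlap (log2 fold change -0.57, SE 0.17, adjusted p = 0.0700 by limma). The difference shrank to -0.12 without scaling and -0.13 after quantile normalization. The muscle form, Fbp2, which was well above background on 7 of 8 arrays, read -4.57, -4.75, -4.92 and -5.25 on STD and -5.33, -4.23, -4.90 and -5.49 on ATH and overlapped throughout (log2 fold change -0.12, SE 0.28).

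The last step to free glucose was level: glucose 6-phosphatase (G6pc) changed by 0.02 (SE 0.17) and its transporter Slc37a4 by 0.01 (SE 0.16). Pyruvate carboxylase (Pcx), which feeds the pathway in the mitochondrion, changed by -0.29 (SE 0.13, adjusted p = 0.184 by limma). Mitochondrial phosphoenolpyruvate carboxykinase (Pck2) read -1.17, -1.26, -0.19 and 0.05 on STD and -0.66, -0.70, -0.10 and 0.56 on ATH (log2 fold change 0.42, SE 0.38). Each ATH array exceeded the STD array of the same number, within a spread that overlapped.

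Among the glycogen enzymes, liver glycogen synthase (Gys2) read 5.89, 5.82, 5.48 and 5.36 on STD and 5.68, 5.56, 4.89 and 4.95 on ATH (log2 fold change -0.37, SE 0.22, adjusted p = 0.297 by limma). Liver glycogen phosphorylase (Pygl) read 7.01, 7.25, 7.02 and 6.96 on STD and 7.27, 7.43, 6.94 and 6.87 on ATH, and changed by 0.07 (SE 0.16) and the branching enzyme (Gbe1) by -0.04 (SE 0.17). The pyruvate dehydrogenase kinases, which close the entry of pyruvate into the citric acid cycle, changed by -0.52 (Pdk1, SE 0.23, adjusted p = 0.184) and -0.51 (Pdk2, SE 0.18, adjusted p = 0.11), also short of the threshold.

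Across the 35 genes the diets did not overlap for 4 genes that were higher on the ATH diet (Hk2, Pfkfb3, Pkm2 and Gpi1) and 5 that were lower (Aldoc, Tpi1, Eno3, Fbp1 and Pck1). Over all genes, 7.59% separated in the higher and 14.6% in the lower direction. The counts of 4 and 5 of 35 were thus close to those of the array as a whole.

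Ratios of 2 isozymes on the same array do not depend on the scaling by a constant. Ratios were formed for 11 pairs and compared between the diets by an exact permutation test (two-sided, 70 assignments, smallest possible p = 0.0286). Except for Pck2 over Pck1, each set a form of another tissue over its liver or common counterpart. Pck2 over Pck1 set the mitochondrial over the cytosolic form, and Pck2 was classed among the shared genes. A change in a ratio shows only that the probes changed unequally.

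Of the 11 ratios, 2 did not overlap between the diets. Log2 Pfkfb3 over Pfkfb1 was -2.64, -2.74, -4.22 and -3.38 on STD and -2.13, -1.75, -0.14 and -0.93 on ATH, a difference of 2.01 (SE 0.57). Log2 Pck2 over Pck1 was -8.87, -8.75, -8.08 and -7.66 on STD and -6.66, -7.54, -7.45 and -6.46 on ATH, a difference of 1.31 (SE 0.40).

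Both were higher on the ATH diet. Each had an exact p of 0.0286 and, adjusted over the 11 pairs, 0.157, so that neither passed after correction. Taken as pairs of the same array number, the smallest exact p that 4 pairs allow is 0.125, which these 2 ratios, Pkm2 over Pklr and Gys1 over Gys2 reached.

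Log2 Pkm2 over Pklr was -1.01, -1.16, -0.85 and -1.08 on STD and 0.36, -0.93, 1.45 and 1.63 on ATH, a difference of 1.65 (SE 0.59, exact p = 0.0571). ATH array 2 lay inside the STD range and the other ATH arrays above it. Log2 Pfkp over Pfkl differed by 1.17 (SE 0.31, exact p = 0.0571), with ATH array 2 the lowest of the ATH livers.

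The muscle glycogen synthase Gys1 read -5.31, -5.34, -4.14 and -4.18 on STD and -4.72, -4.84, -3.51 and -2.93 on ATH. The brain glycogen phosphorylase Pygb read -2.54, -2.95, -2.26 and -1.92 on STD and -2.35, -2.66, -1.42 and -1.04 on ATH. In both, arrays 3 and 4 lay above arrays 1 and 2 on either diet, and the diets overlapped.

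The remaining 7 ratios had exact p from 0.2 to 0.914. Among them muscle over liver glycogen synthase (Gys1 over Gys2) differed by 1.11 (SE 0.81) and brain over liver glycogen phosphorylase (Pygb over Pygl) by 0.48 (SE 0.59). The enolase ratio (Eno3 over Eno1) was the most level at 0.01 (SE 0.13).

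**Figure D3:**
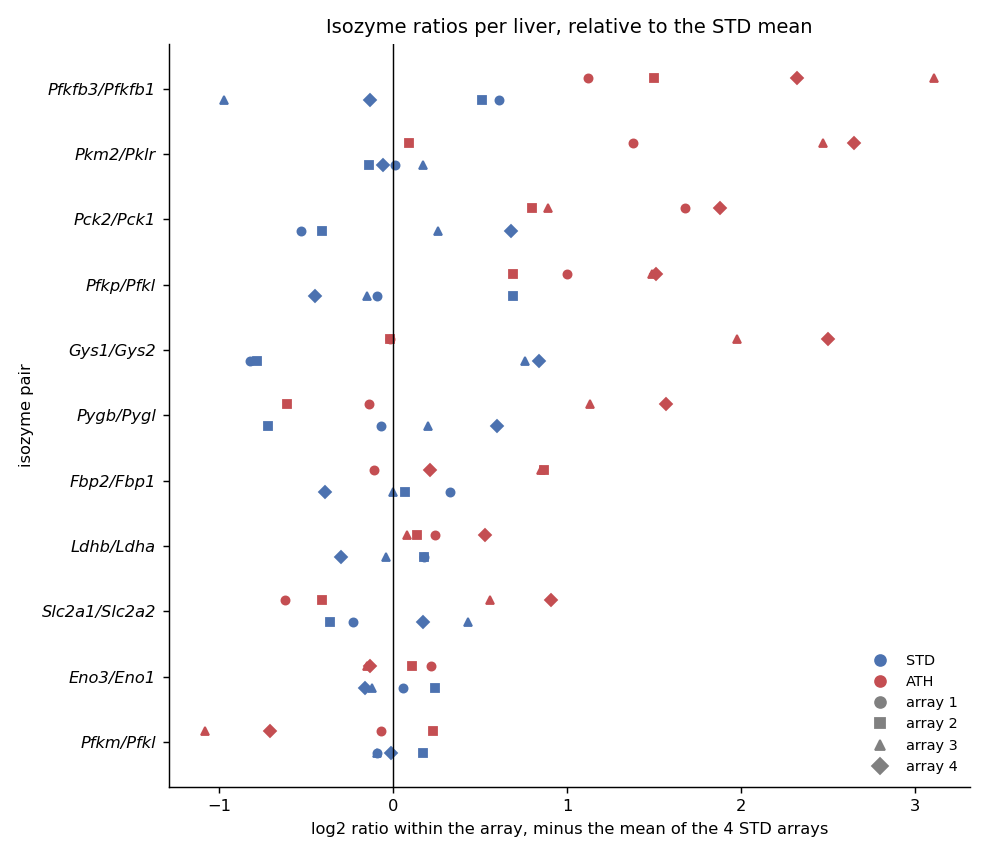
Log2 isozyme ratio in each liver minus the mean of the 4 STD livers (x axis) for the 11 pairs (y axis), blue for STD and red for ATH, with 1 symbol for each array number. The red points of Pfkfb3/Pfkfb1 and Pck2/Pck1 clear the blue ones, and ATH arrays 3 and 4 lie far right for the pyruvate kinase pair while array 2 stays near 0.

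The livers on the ATH diet differed from one another more than those on the STD diet. The median SD over the 35 genes was 0.31 on ATH and 0.15 on STD, where it was 0.27 and 0.19 over all genes, and among the isozymes of other tissues it was 0.57 against 0.15. The median deviation of those 13 isozymes from their STD means was 0.30, 0.00, 0.64 and 0.66 on ATH arrays 1 to 4. For the 12 liver isozymes it was -0.09, 0.06, -0.37 and -0.32.

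Macrophage markers, like the isozymes of other tissues, were highest on ATH arrays 3 and 4 and lowest among the ATH livers on array 2. All 20 macrophage markers were higher on the ATH diet, 13 of them called, with a median log2 fold change of 1.91 (4 of the 13 passed with any array left out). Over all genes, 34.9% lay above 0 and 4.05% were called higher. The median deviation of the markers from the STD means was 1.69, 0.79, 2.60 and 2.71 on ATH arrays 1 to 4, against -0.16 to 0.07 on the STD arrays. The log2 of their summed scaled signal was 7.01 to 7.28 on STD and 7.96 to 10.02 on ATH. Among the defining genes, lysozyme 2 (Lyz2) rose by 2.27 and the lipid-associated macrophage gene Trem2 by 3.16 on the log2 scale. The Kupffer cell lectin Clec4f had a log2 fold change of 0.32 and was not called. Gpnmb, of the same cells as Trem2, was well above background on the ATH arrays only. It passed the detection filter through those arrays alone, so its place in the counts of 20, 13 and 4 is not evidence of a rise.

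Hepatocyte markers went the other way, with 16 of 17 lower, 5 of them called, and a median log2 fold change of -0.42. Over all genes, 34.9% lay above 0, 5.3% were called lower and the median was -0.14. The median deviation of the hepatocyte markers was -0.28, -0.19, -0.67 and -0.74 on ATH arrays 1 to 4. Without scaling the median of the hepatocyte list was 0.03. The log2 of their summed scaled signal was 12.08 to 12.15 on STD and 11.38 to 11.87 on ATH, and albumin (Alb), the main secreted protein of hepatocytes, read 9.63 or higher on every array. Of the 5 calls, Cyp3a11 (-1.83) and Tat (-1.05) held with any array left out and with the arrays paired by number, and the other 3 did not hold in either. The part of other cells in the values of Hk1, Hk2, Hk3, Pfkp, Pfkfb3 and Pkm2 was not tested. In whole liver, fewer cells of a type and less RNA per cell cannot be told apart.

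**Figure D4:**
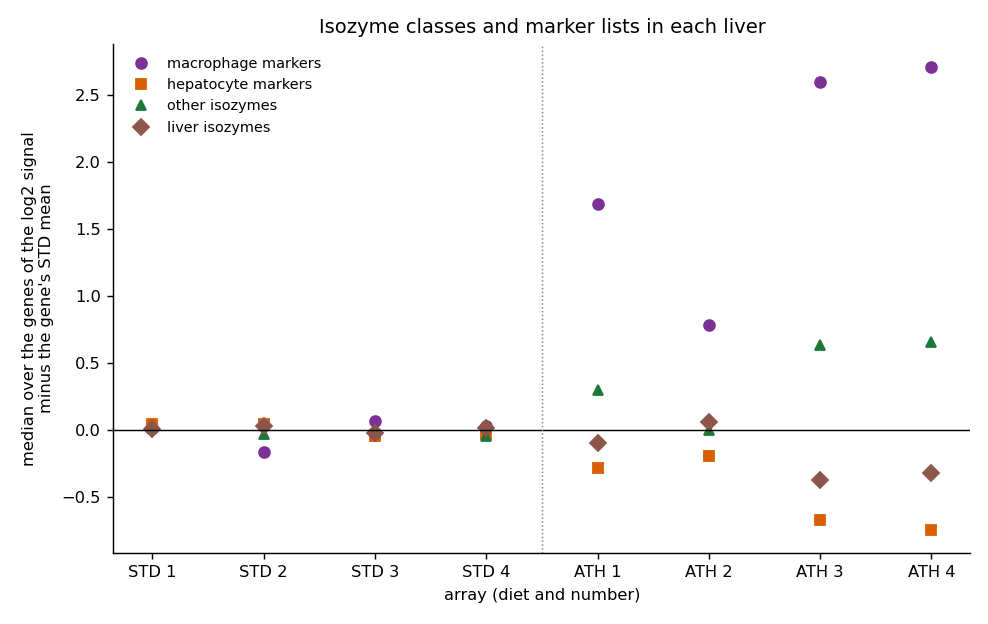
Median deviation of the log2 signal from each gene's STD mean (y axis) in each of the 8 livers (x axis), for 20 macrophage markers, 17 hepatocyte markers, 13 isozymes of other tissues and 12 liver isozymes. The macrophage markers and the isozymes of other tissues are highest on ATH arrays 3 and 4 (2.60 and 2.71; 0.64 and 0.66) and lowest among the ATH livers on array 2.

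Of the other non-hepatocyte lists, neutrophil markers (8 detected) had a median log2 fold change of 0.51, lymphocyte markers (12) of 0.80 and muscle markers (6) of -0.36. None of their genes was called by limma. An unadjusted p under 0.05 was seen for 3, 6 and 2 of them, against 30.6% of all genes. With the arrays paired by number, the neutrophil genes S100a8 and S100a9 were called higher (adjusted p = 0.0271 and 0.0301 by limma). Stellate cell markers (12) had a median of 0.37, endothelial markers (10) of 0.16 and cholangiocyte markers (8) of 0.29, with 1 gene called higher in each, Col3a1, Lyve1 and Sox9. Over all genes, 4.05% were called higher and 5.3% lower. Among 5 erythroid markers, of cells that also express Pklr, the median was -0.12 and Alas2 was called lower (adjusted p = 0.0466 by limma). That call was lost with the arrays paired by number (0.0626) and without scaling (0.103). Alas2, Col3a1 and Sox9 each passed in 2 of the 8 analyses that left out 1 array, and Lyve1 in 1.

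These lists differed from one another in their order over the ATH arrays. Neutrophil and lymphocyte markers, like macrophage markers and the isozymes of other tissues, were highest on arrays 3 and 4 and lowest on array 2. The median deviation from the STD means on ATH arrays 1 to 4 was 0.10, 0.09, 1.37 and 0.94 for neutrophil markers, 0.54, -0.08, 1.62 and 1.41 for lymphocyte markers, and 0.21, 0.45, 0.59 and 0.48 for stellate cell markers, all highest on array 3. It was 0.13, 0.31, -0.07 and 0.23 for endothelial and 0.06, 0.29, 0.67 and 0.15 for cholangiocyte markers. Erythroid markers, at 0.39, 0.48, -0.61 and -0.94, and muscle markers, at -0.35, -0.10, -0.44 and -0.57, were lowest on array 4.

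Genes around the pathway were read from lists of the same kind. Of 21 other genes of glycolysis and glucose transport, 1 was called higher and 2 lower, where 4.05% and 5.3% of all genes were. The insulin-responsive transporter GLUT4 (Slc2a4) read -3.37, -3.42, -3.21 and -3.36 on STD and -1.32, -0.89, -1.88 and -1.14 on ATH. The 4 ATH livers were uniformly higher, by 2.03 on the log2 scale (SE 0.20, 4.09-fold, adjusted p = 0.00377 by limma), and here ATH array 2 was the highest and array 3 the lowest.

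Glycerol 3-phosphate dehydrogenase 1 (Gpd1), which links glycolysis to triglyceride synthesis, fell by 0.83 on the log2 scale (adjusted p = 0.0138 by limma). The transporter Slc2a8 (GLUT8) fell by 0.75 (adjusted p = 0.0343 by limma, 0.0511 with the arrays paired by number). Without scaling Gpd1 stayed called at -0.39 (adjusted p = 0.0431), and the call of Slc2a8 was lost at -0.30 (0.213). Slc2a4 and Gpd1 passed with any array left out, and Slc2a8 in 2 of 8 such analyses.

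Of 23 other genes of glycogen metabolism, 1 was called higher and 2 lower, where 4.05% and 5.3% of all genes were. A glycogen-targeting subunit of protein phosphatase 1, Ppp1r3g, read -1.55, -2.51, -3.11 and -2.98 on STD and -4.12, -4.43, -4.82 and -5.24 on ATH, and was 4.34-fold lower (log2 fold change -2.12, SE 0.37, adjusted p = 0.0186 by limma). Phosphoglucomutases, which interconvert glucose 1- and 6-phosphate, split: Pgm1 fell by 0.61 (adjusted p = 0.0389, -0.16 without scaling and not called there) and Pgm2 rose by 0.72 (adjusted p = 0.019) on the log2 scale. Ppp1r3g passed in 6 and Pgm2 in 5 of the 8 analyses that left out 1 array, and Pgm1 in 2.

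Of 18 genes of pyruvate handling and the redox shuttles, 1 was called higher and 5 lower, where 4.05% and 5.3% of all genes were. Pyruvate dehydrogenase kinase 4 (Pdk4), which spares pyruvate during fasting, read 1.84, 1.16, 1.46 and 0.27 on STD and -0.92, -1.12, -1.21 and -1.54 on ATH. It was lower in every ATH liver by 2.38 on average (SE 0.31, 5.2-fold, adjusted p = 0.008 by limma) and passed with any array left out. The opposing phosphatase Pdp1 rose by 0.81 (adjusted p = 0.0413), and malic enzyme (Me1) fell by 1.26 (adjusted p = 0.0215). With 1 array left out, Me1 passed in 3 and Pdp1 in 2 of 8 analyses.

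Of 4 aminotransferases that exchange pyruvate and oxaloacetate with amino acids, 3 fell: Got1 by 0.84 (adjusted p = 0.0307), Gpt by 0.66 (0.0464) and Gpt2 by 0.68 (0.0417) on the log2 scale. Got2 had a log2 fold change of -0.42 (adjusted p = 0.143) and was not called. With the arrays paired by number the first 3 had adjusted p of 0.0520, 0.0652 and 0.0501 and were not called. Without scaling none of them was called either, and each of the 3 passed in at most 2 of the 8 analyses that left out 1 array.

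By limma none of 8 genes of the pentose phosphate pathway was called. An unadjusted p under 0.05 was seen for 4 of them, against 30.6% of all genes. The first enzyme of the pathway, G6pdx, was nearest at 1.32 (adjusted p = 0.0518 by limma). None of 27 regulators of glucose metabolism was called by limma, among them the hypoxia-inducible factor Hif1a at 0.19 and the carbohydrate response factor Mlxipl (ChREBP) at -0.15. Of these 27, 7 had an unadjusted p under 0.05, against 30.6% of all genes. Of 15 hypoxia-inducible genes outside glycolysis, adrenomedullin (Adm) was 1.58-fold higher (adjusted p = 0.0493) and carbonic anhydrase 9 (Car9) 1.82-fold lower (adjusted p = 0.0268). Over all genes, 4.05% were called higher and 5.3% lower. Neither call held with the arrays paired by number (0.0523 for Adm and 0.0617 for Car9). Adm passed in 1 and Car9 in 4 of the 8 analyses that left out 1 array. The median of that list was -0.27.

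The promoters of the isozymes differed in a feature that the grouping did not use. RefSeq windows of 300 bases, 250 before and 50 after a transcription start (GRCm38.p6), were found for all of the genes but Gys2, 55 windows in all, and searched on both strands for ACGTG, the core letters of hypoxia response elements. The letters were present in 59.1% of the 22 windows of isozymes of other tissues (10 of 13 genes). They were present in 11.1% of the 18 windows of liver isozymes (2 of 11 genes) and in 26.7% of the 15 windows of shared genes (4 of 10 genes). Of all 32851 promoters, 19.6% held them (5886 of 27025 genes). Windows of a gene with several starts can overlap.

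The same search for CACGTG, the E-box read by MYC and ChREBP, which contains ACGTG, gave 13.6% for isozymes of other tissues, 5.6% for liver isozymes and 7.2% for all promoters. TGACG, the core of cyclic AMP response elements, gave 22.7%, 22.2% and 20.8%. The median GC content of the windows was 58.2% for isozymes of other tissues, 54.8% for liver isozymes and 52.7% for all promoters. Of the 10 isozymes of other tissues with ACGTG, Aldoc, the gene that fell, Pfkm, Fbp2 and Slc2a1 had lower means on the ATH diet. The rest of the 10 had higher means. Of the 3 without it, Pfkp and Ldhb had higher means and Eno3 a lower one. The liver isozymes with the letters are Pcx and Pygl. Whether the letters go with the direction of change was not tested. A match of letters is not a binding site, and base composition was not adjusted for.

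The 250 bases before the most upstream start are shown for Hk2, Hk3 and Pfkfb3, isozymes with higher means on the ATH diet, and for Pklr, a liver isozyme without the letters. Capitals mark ACGTG or its complement CACGT, which begins 226 and 52 bases before the start of Hk2, 156 before that of Hk3 and 60 before that of Pfkfb3. Each sequence runs 5′ to 3′ along the gene's strand in GRCm38.p6.
Hk2, chr6:82774455-82774704, minus strand: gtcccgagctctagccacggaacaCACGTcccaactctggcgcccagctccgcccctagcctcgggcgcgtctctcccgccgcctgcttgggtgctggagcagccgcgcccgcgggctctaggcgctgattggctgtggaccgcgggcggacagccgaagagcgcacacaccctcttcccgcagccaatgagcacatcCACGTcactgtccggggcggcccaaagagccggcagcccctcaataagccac
Hk3, chr13:55021386-55021635, minus strand: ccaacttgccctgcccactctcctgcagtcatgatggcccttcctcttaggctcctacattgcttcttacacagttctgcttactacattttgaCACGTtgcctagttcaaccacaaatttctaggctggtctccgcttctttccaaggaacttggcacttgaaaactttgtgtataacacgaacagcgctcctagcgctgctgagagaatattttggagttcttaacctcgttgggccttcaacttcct
Pfkfb3, chr2:11553930-11554179, minus strand: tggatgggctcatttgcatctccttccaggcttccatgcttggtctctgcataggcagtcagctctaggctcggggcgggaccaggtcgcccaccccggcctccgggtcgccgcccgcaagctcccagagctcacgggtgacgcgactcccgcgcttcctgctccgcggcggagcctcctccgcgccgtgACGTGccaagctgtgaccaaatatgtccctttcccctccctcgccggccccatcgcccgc
Pklr, chr3:89135892-89136141, plus strand: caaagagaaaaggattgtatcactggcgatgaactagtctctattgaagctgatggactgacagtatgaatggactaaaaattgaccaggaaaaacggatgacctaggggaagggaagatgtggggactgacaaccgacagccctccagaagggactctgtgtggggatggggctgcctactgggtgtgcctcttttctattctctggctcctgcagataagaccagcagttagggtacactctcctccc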

How the data were processed

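RNA from 8 livers, 4 per diet, was hybridised to 1-colour Agilent whole mouse genome arrays, 1 per mouse, and the groups follow the diet in the labels. The authors scanned the arrays with Agilent Feature Extraction 9.5, and the deposited intensity values are background-corrected processed signals per spot. The authors also deposited log2 values for 31642 probes, normalised per probe and array, used as an alternative. The deposited flags, read as other values, mark outlier, saturated and well above background spots.

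Spots of a probe were averaged on the log2 scale without flagged outliers, and each array's 75th percentile was subtracted. Of 41174 probes, 31056 were kept, being well above background on at least 3 of 4 arrays of a diet. On each array 71.94% to 77.37% of probes were well above background, and pairs of arrays of 1 diet correlated at 0.9711 to 0.9908. Probes were named by accession (22951), symbol (6659) or synonym (3109) through RefSeq, and 8455 kept the file's name.

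Diet was tested with limma 3.58.1 in R 4.3.3 (two-sided, Benjamini-Hochberg over all detected probes), called at 5% with the methods' 1% beside it. Ratios, exact tests and plots were made in Python 3.11.15 (pandas 2.3.3, scipy 1.17.1, matplotlib 3.10.9, numpy 2.4.6). The fit was tested on simulated data for this comparison, where it recovered 88% of 200 planted log2 differences of 2 among 31056 probes, with 11 false among 187 calls. The simulation gave both diets the same SD for each probe, whereas the median SD of the 35 genes was 0.31 on ATH and 0.15 on STD. These rates therefore do not cover genes of unequal spread. All 36 genes could be named. Per-array values are given for members that were called or were listed for an isozyme ratio, reported or not, and for others chosen after their values were seen. From other lists at most 3 called genes in each direction fell under the naming rule, and the other genes named from them, Gpt, Gpt2 and Got2 included, were chosen after their values were seen. The genes and lists were chosen with earlier results of these data known, and gene lists come from general knowledge. Arrays of the same number in both diets deviated together (correlations of 0.1001, 0.2294, 0.1816 and 0.1763), and were treated as pairs in an alternative. The labels do not say what the numbers mark. Scalings, filters, other tests and leaving out each array were the other alternatives. A pair of genes outside the 36, and the 5 ratios formed with them, are not reported here, and p-values of ratios were adjusted over the other 11.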

Additional observations from a re-analysis of the deposited data

Results flagged for a closer look

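In 3 of 92 groups of 4 arrays, 1 array stood apart from the rest of its diet by Dixon's criterion, where chance gives about 1 group in 20. For Hk1, STD array 2 read -0.44 against -0.24 to -0.21 on the others (gap over range 0.854). For Pgk1, STD array 1 read 6.23 against 6.52 to 6.56 (0.892). For G6pc, ATH array 2 read 5.71 against 5.31 to 5.33 (0.945), so that this liver, the lowest of its diet for the hexokinases and Pkm2, was the highest for glucose 6-phosphatase.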

How the results depend on the processing

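The Aldoc decrease passed 5% under the other scalings, filters and backgrounds and with the replicate block (adjusted p from 0.00264 to 0.0369), and not under the methods' ANOVA with unequal variance (0.0874). The Pkm2 increase was also lost there (0.176) and without a detection filter (0.0523). Genes called higher and lower, 1 and 1 in the main setting, were 12 and 1 without scaling, 5 and 1 with spike-in scaling, 5 and 4 with normexp background correction, 3 and 1 for probes detected on all 8 arrays, 0 and 1 without a detection filter, 0 and 1 at 1%, and 0 and 0 by the methods' ANOVA. Leaving out single arrays gave 0 to 5 higher and 1 to 2 lower. With the replicate block they were 1 and 1, as in the main setting. The cause of the other shifts was not tested. At 1%, 0.26% of all genes were called higher and 0.38% lower. The share of all genes called was not counted for probes detected on all 8 arrays or without a detection filter. Nor was it counted by the methods' ANOVA or with single arrays left out. The counts in those settings therefore cannot be set against the array as a whole. Without ATH array 2 the 5 higher were Hk1, Hk2, Hk3, Pfkp and Pkm2, and Fbp1 joined Aldoc among the lower. Calls in the other lists also rose in that setting, from 36 to 62 genes. The median log2 fold change of the genes turned from -0.058 to 0.016 with median, 0.131 with quantile, 0.251 with spike-in and 0.389 with no scaling. Genes called in the other lists were 36, 75 without scaling, 25 with the replicate block, and 10 to 62 with single arrays left out.

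Without scaling the sign turned for Gckr (0.38), Slc2a1 (0.39), Slc2a2 (0.28), Pfkm (0.06), Tpi1 (0.11), Pgk1 (0.16), Pgam1 (0.27), Eno1 (0.10), Eno3 (0.11), Fbp2 (0.33), Pcx (0.16), Gys2 (0.08) and Gbe1 (0.41). With spike-in scaling it turned for Gckr (0.24), Slc2a1 (0.25), Slc2a2 (0.14), Pgk1 (0.02), Pgam1 (0.13), Fbp2 (0.19), Pcx (0.02) and Gbe1 (0.27). With quantile normalization it turned for Gckr (0.27), Slc2a1 (0.03), Slc2a2 (0.02), Pgk1 (0.01), Pgam1 (0.13), Fbp2 (0.13), Pcx (0.03), Gbe1 (0.25) and the ratios Ldhb/Ldha (-0.10) and Eno3/Eno1 (-0.01). With median scaling it turned for Gckr (0.01), Slc2a1 (0.02) and Gbe1 (0.04). None of these genes was called in the main setting or where its sign turned. With single arrays left out, near-level genes crossed 0: Fbp2 (-0.37 to 0.05), G6pc (-0.11 to 0.09), Gbe1 (-0.15 to 0.06), Gckr (-0.18 to 0.08), Ldha (-0.04 to 0.06), Pfkl (-0.06 to 0.11), Pygl (-0.04 to 0.15), Slc2a1 (-0.18 to 0.06), Slc37a4 (-0.09 to 0.10), Slc2a1/Slc2a2 (-0.16 to 0.35) and Eno3/Eno1 (-0.06 to 0.09). The ratios that did not overlap numbered 2, 1 with quantile normalization, 2 to 4 with arrays left out (4 without ATH array 2), and 4 in which all 4 same-numbered pairs agreed in sign under the replicate block. The 4 arrays per diet and the dim signal of Fbp2, Gys1 and Pygb limit the precision.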
